A study of Mus musculus with 23 samples.

Results

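Guanylate-binding proteins are a family of large GTPases whose genes are switched on by interferons. The 9 members described here, Gbp2, Gbp3, Gbp4, Gbp5, Gbp6, Gbp7, Gbp8, Gbp9 and Gbp10, were the rows of the count table with those gene symbols, among 24454 genes, and all 9 passed the filter on low counts. The family was chosen because its levels differed between genotypes in the CD41-positive stem cell fraction, so values of that fraction are given as a description and were not tested. The series measured RNA of blood stem and progenitor cells sorted from marrow of C57BL/6 mice that carry SclCre and V617F (SF1 in the labels) and of Wildtype (WT) mice, in 23 libraries. V617F is the activating form of the kinase JAK2 found in myeloproliferative neoplasms, and the Scl-driven Cre switches it on in stem and progenitor cells after tamoxifen. Both genotypes were given tamoxifen for 5 days, with the cells sorted after another 12 weeks, so WT mice carry the drug treatment but, per the labels, neither the Cre nor the V617F allele.

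The groups were 3 V617F and 2 WT libraries of CD41-positive stem cells (HSC), 3 V617F and 3 WT libraries of CD41-negative HSC, 3 V617F and 3 WT libraries of megakaryocyte progenitors (MkP), and 3 V617F and 3 WT libraries of long-term stem cells (LT-HSC). The LT-HSC gate took Kit+ and Sca-1+ cells free of lineage markers that bore CD150 but not CD48, the CD41 fractions split that gate, and MkP were Kit+ cells free of lineage markers and of Sca-1 that bore CD150 and CD41. Mice of the CD41 fractions were labelled female apart from V617F number 2, male in both fractions, and all MkP mice were female. V617F LT-HSC came from males and WT LT-HSC from females, so that sex and genotype cannot be told apart there. The CD41 fractions were amplified with SMART-Seq v4 and the LT-HSC and MkP with SMART-Seq v2, and each protocol was normalised and tested apart. Levels are CPM, counts per M (mega) of the scaled library total, and a library's number is the one in its label.

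Interferon-gamma acts through the receptor subunits IFNGR1 and IFNGR2 and the kinases JAK1 and JAK2 on genes that hold GAS motifs. Type I interferons act on genes that hold the interferon-stimulated response element (ISRE), to which IRF9 binds within a complex. In infected mouse cells the encoded GTPases gather on vacuoles that hold parasites or bacteria and on free bacteria, and they assist inflammasome activation. In mice the genes lie in a pair of clusters, one on chromosome 3 and one on chromosome 5.

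In RefSeq annotation of GRCm38.p6 (mm10), the chromosome 3 cluster runs from Gbp5 (142496934 to 142522344) through Gbp7 (142530336 to 142550151), Gbp3 (142560016 to 142573213) and the non-member Gbp2b to Gbp2 (142620663 to 142638008). The chromosome 5 cluster runs from Gbp8 (105012513 to 105053609) through Gbp9 (105076464 to 105110357), Gbp4 (105115767 to 105139586) and Gbp10 (105215699 to 105239533) to Gbp6 (105270702 to 105295871), beside the transcribed pseudogene Gbp11. The split of the members by chromosome used below was chosen after their values had been seen.

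The 5 chromosome 5 members have nearly the same coding sequence, which bears on how far reads could be assigned to one of them. In the GENCODE annotation of GRCm38, coding identity over the 10 pairs of chromosome 5 members was 90.6% to 98.4% with a median of 90.8%, whereas it was 66.7% to 79.6% over the 6 pairs on chromosome 3 and 65.5% to 76.6% over the 20 pairs across the clusters. Gbp6 and Gbp10 were identical at 1803 of 1833 aligned coding bases. Of the stretches of 50 bases in the transcript of Gbp10, 73.3% also occur in Gbp6, and of those in Gbp6, 45.9% occur in Gbp10. The share of stretches found in any other gene of the family was 18.1% for Gbp8, 8.05% for Gbp9 and 7.53% for Gbp4, and at most 3.75% for the chromosome 3 members. The counting method was not given in the sources used here, so counts of Gbp6 and Gbp10 in particular are uncertain as to which gene they belong to. The first 90 coding bases, shown because they make this likeness visible, lie on the minus strand in 1 exon of each gene, and capitals mark bases that differ from Gbp6.
Gbp6, chr5:105290931-105291020: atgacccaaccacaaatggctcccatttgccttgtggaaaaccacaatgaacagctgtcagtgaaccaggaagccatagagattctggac
Gbp10, chr5:105236045-105236134: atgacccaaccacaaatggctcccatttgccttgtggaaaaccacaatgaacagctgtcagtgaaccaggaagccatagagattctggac
Gbp4, chr5:105136932-105137021: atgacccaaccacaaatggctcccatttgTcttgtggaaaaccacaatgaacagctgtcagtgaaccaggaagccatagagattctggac
Gbp9, chr5:105105758-105105847: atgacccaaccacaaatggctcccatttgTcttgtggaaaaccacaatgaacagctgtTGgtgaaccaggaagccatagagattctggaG
Gbp8, chr5:105050958-105051047: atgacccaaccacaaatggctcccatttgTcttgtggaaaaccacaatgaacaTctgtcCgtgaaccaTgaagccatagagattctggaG
Gbp10 and Gbp6 did not differ in this stretch, Gbp4 differed from Gbp6 at 1 base, Gbp9 at 4 and Gbp8 at 5.

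RefSeq promoter sequence, 250 bases before to 50 bases after a transcript start, was at hand for 4 members, Gbp2, Gbp3, Gbp5 and Gbp7, all on the plus strand of chromosome 3. Gbp3 had 2 promoter entries, one from 142559794 to 142560093 and one from 142560106 to 142560405, and the other members 1 each. At least 1 entry of each member held the ISRE letters GAAANNGAAA on either strand, as for 3.99% of the 27025 genes with such an entry, and 3.44% of the 32851 entries held them. The second entry of Gbp3 held neither these letters nor those of GAS. The match began 59 bases before the start in Gbp2, 53 in Gbp7 and 165 in Gbp5, and the first entry of Gbp3 had 2 overlapping matches, beginning 45 and 39 bases before the transcript start of that entry, which lies inside the gene bounds given above. The GAS letters TTCNNNGAA occurred in 2 places each in Gbp5 and Gbp7 and in neither Gbp2 nor Gbp3, against 9.55% of genes and 8.3% of entries. The promoters of Gbp7 and Gbp2, the pair of members with the highest levels in stem cells, are shown with these matches in capitals.
Gbp7, chr3:142530086-142530385: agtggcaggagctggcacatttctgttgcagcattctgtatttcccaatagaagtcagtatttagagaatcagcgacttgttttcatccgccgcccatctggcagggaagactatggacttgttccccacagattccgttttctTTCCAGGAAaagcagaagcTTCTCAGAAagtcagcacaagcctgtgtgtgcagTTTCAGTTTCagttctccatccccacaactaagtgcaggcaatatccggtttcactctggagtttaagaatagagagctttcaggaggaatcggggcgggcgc
Gbp2, chr3:142620413-142620712: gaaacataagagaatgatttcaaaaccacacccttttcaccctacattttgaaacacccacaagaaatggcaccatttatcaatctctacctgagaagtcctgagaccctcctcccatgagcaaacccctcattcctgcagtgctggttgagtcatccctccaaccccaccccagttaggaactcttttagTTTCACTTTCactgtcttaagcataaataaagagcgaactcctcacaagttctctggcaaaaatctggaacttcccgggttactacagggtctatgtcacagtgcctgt
In Gbp7 the first and second capital stretches match GAS and the last matches ISRE, and in Gbp2 the single capital stretch matches ISRE. A match describes these letters and is not a shown binding site.

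Libraries held 17.6 to 49.2 M counts. In the SMART-Seq v2 data V617F libraries detected more genes than WT libraries, 15298 to 15697 against 12876 to 13805 in LT-HSC and 14634 to 15167 against 11483 to 12463 in MkP, although V617F LT-HSC had fewer counts than WT LT-HSC (17.6 to 22.0 against 34.6 to 49.2 M). The difference was smaller with SMART-Seq v4, at 16259 to 16587 genes in V617F and 15998 to 16428 in WT CD41-negative HSC, and 15819 to 16061 in V617F and 16244 to 16341 in WT CD41-positive HSC. Summed CPM of 10 stem cell markers was 3594 to 3814 in V617F and 3778 to 6353 in WT CD41-negative HSC. That of 10 megakaryocyte markers was 5046 to 6484 in V617F and 4876 to 5578 in WT MkP, with Gp6 at 0 in both genotypes of all stem cell groups. The MkP differed between genotypes in 10 granulocyte markers, which summed to 1131 to 2575 CPM in V617F and 8334 to 12300 CPM in WT. The part of these markers in the MkP comparisons was not tested. Among the v2 libraries, WT LT-HSC number 30 had low levels of most members and the highest sum of monocyte and macrophage markers (2214 CPM), and WT MkP number 32 had 0 counts of 6 of the 9 members.

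In CD41-negative HSC all 5 chromosome 5 members fell in V617F, by 1.64-fold to 4.29-fold, while none of the 4 chromosome 3 members passed the test. Across all genes, 7.94% passed in the lower direction and 13.4% in either direction, with edgeR's quasi-likelihood test and an adjusted p under 0.05. The median log2 fold change was -0.71 over the 9 members, -1.59 over the chromosome 5 members and 0.13 over the chromosome 3 members, beside -0.01 over all genes tested. The family was chosen on the CD41-positive libraries and not on these, but with earlier results of these data known. V617F libraries with the same number in both fractions also varied together and may come from the same mouse. Because the split by chromosome was chosen after the values had been seen, the contrast between the clusters is a description and was not tested. In bulk RNA, fewer cells that express a gene and less RNA per cell cannot be told apart.

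Gbp4 had 23.7, 17.9 and 28.7 CPM in V617F CD41-negative libraries 1, 2 and 3, against 59.1, 73.8 and 80.5 CPM in WT libraries 1, 3 and 4. Every V617F library lay below every WT library. The means were 23.4 ± 5.37 CPM in V617F and 71.1 ± 10.9 CPM in WT (SD, n = 3 each), a log2 fold change of -1.60 (SE 0.24, adjusted p = 0.00378).

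Gbp10, which in mouse macrophages was reported to take part in defence against intracellular bacteria, had 17.9, 7.64 and 26.3 CPM in V617F and 81.0, 72.9 and 69.0 CPM in WT. It had the lowest V617F level of the members, 17.3 ± 9.36 CPM, against 74.3 ± 6.09 CPM in WT (SD, n = 3 each). Its log2 fold change was -2.10 (SE 0.42, adjusted p = 0.0141). Library 2, from the male mouse, was lowest in V617F, and the groups did not overlap.

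Gbp6, named with Gbp10 in the same work on bacterial defence, had 33.8, 16.2 and 43.5 CPM in V617F and 90.01, 78.2 and 113.5 CPM in WT. V617F library 2 was again the lowest. Its log2 fold change was -1.59 (SE 0.33, adjusted p = 0.0171). Both Gbp6 and Gbp10 lay below WT in every V617F library. Their reads can be exchanged, as described above, and the part of this in their values was not tested.

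Gbp9, a member found on the vacuole of Toxoplasma in mouse cells, had 19.0, 21.4 and 24.5 CPM in V617F against 60.7, 57.9 and 60.4 CPM in WT. The libraries of each genotype lay close together, with means of 21.6 ± 2.76 CPM in V617F and 59.7 ± 1.55 CPM in WT (SD, n = 3 each). The log2 fold change was -1.46 (SE 0.21, adjusted p = 0.00339).

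Gbp8 changed least of the chromosome 5 members. It had 30.2, 31.1 and 31.7 CPM in V617F against 50.03, 41.0 and 61.4 CPM in WT, without overlap, and a log2 fold change of -0.71 (SE 0.15, adjusted p = 0.0167). Among all genes tested, 14.3% had every V617F library below every WT library.

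Leaving out V617F library 1 left Gbp4 and Gbp9 as the only called members. That fit called 303 of 14400 genes, against 1941 of 14467 with all libraries. The adjusted p was then 0.0564 for Gbp6, 0.0591 for Gbp8 and 0.0544 for Gbp10. Their log2 fold changes in that fit were -1.67, -0.71 and -2.14. The call of Gbp8 was also lost without V617F library 2 (adjusted p = 0.0527) or 3 (adjusted p = 0.0594). Leaving out WT library 4 instead added Gbp3 and Gbp7 as higher in V617F, 7 called members in all. Summed CPM of 10 granulocyte markers was 165.9 to 200.5 in V617F and 114.1 to 579.9 in WT, highest in WT library 1, and that of 10 megakaryocyte markers was 1032 to 1222 in V617F and 1636 to 1835 in WT. The part of these markers in the result was not tested.

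**Figure D1:**
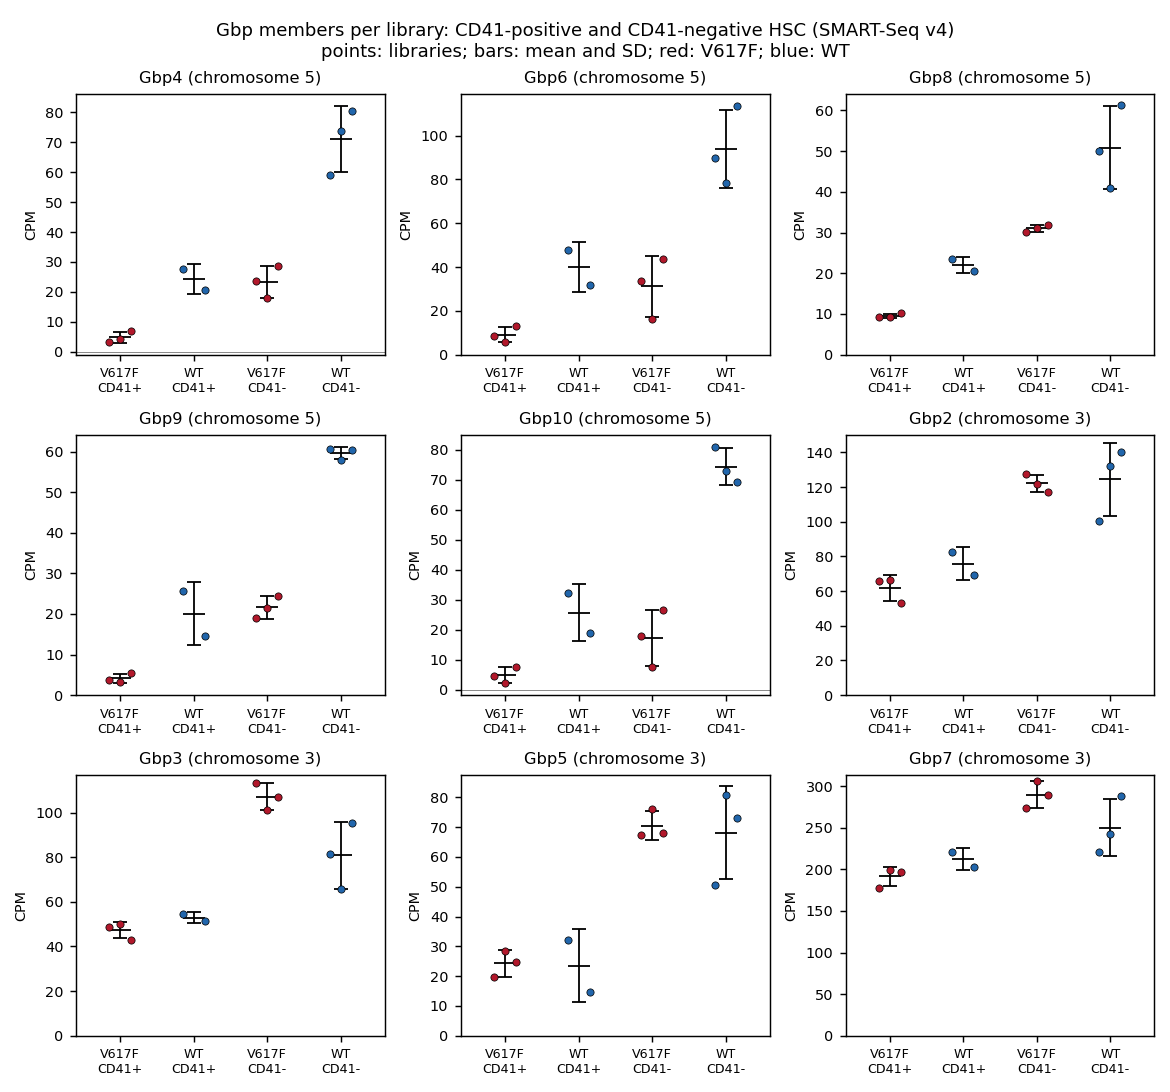
CPM (vertical axes, linear) of each member in each CD41-fraction library (points), with the mean and SD of each group as bars, V617F in red and WT in blue. The V617F CD41-negative libraries lie below the WT ones for Gbp4, Gbp6, Gbp8, Gbp9 and Gbp10, for example at 17.9 to 28.7 against 59.1 to 80.5 CPM for Gbp4, and overlap them for Gbp2, Gbp5 and Gbp7.

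Among the chromosome 3 members, Gbp7, which has been linked to bacterial defence in mouse macrophages, was the most abundant. It had 273.3, 306.7 and 290.0 CPM in V617F CD41-negative libraries 1, 2 and 3, against 220.7, 242.0 and 287.9 CPM in WT libraries 1, 3 and 4. The groups overlapped, with a log2 fold change of 0.21 (adjusted p = 0.212).

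Gbp2, which restricts Toxoplasma in mice, had 127.3, 121.9 and 117.1 CPM in V617F against 100.7, 132.4 and 140.5 CPM in WT. The V617F values lay inside the WT range, with a log2 fold change of -0.03 (adjusted p = 0.898). Gbp5, which promotes inflammasome assembly in mouse macrophages, had 67.4, 76.2 and 68.0 CPM in V617F against 50.7, 80.7 and 73.2 CPM in WT. Its log2 fold change was 0.05 (adjusted p = 0.90), and its groups overlapped too.

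Gbp3 had 113.2, 101.0 and 107.1 CPM in V617F against 81.5, 65.6 and 95.4 CPM in WT. Here every V617F library lay above every WT library, as for 16% of all genes. The log2 fold change was 0.41 (SE 0.13) and the adjusted p of edgeR's quasi-likelihood test was 0.0574. At an unadjusted p under 0.05 it was the 1 member of the 4 on chromosome 3. DESeq2 and limma-voom both called it, with adjusted p of 0.0328 and 0.0468, but in all it was called under only 4 of 16 alternatives. Its log2 fold change was 0.27 to 0.54 when 1 library was left out.

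The chromosome 5 members took a smaller part of the family's transcripts. Summed over genes as CPM per kilobase of gene length, they held 14.8% to 21.6% of the level of the 9 members in V617F CD41-negative HSC and 37.6% to 43.0% in WT. In CPM without length, the chromosome 5 members summed to 94.2 to 154.7 in V617F and 323.8 to 384.8 in WT, and the chromosome 3 members to 581.3 to 605.9 in V617F and 453.7 to 597.0 in WT. Reads exchanged among the chromosome 5 members would leave their sum in CPM as it is. They would change the sum and the share per kilobase, because gene length runs from 2459 bases in Gbp8 to 4538 in Gbp4. The part of read assignment in these values was not tested.

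The same split of the clusters was seen in CD41-positive HSC, which are given as a description since the family was chosen on them. Gbp4 had 3.30, 4.34 and 6.85 CPM in V617F CD41-positive libraries 1, 2 and 3, against 27.8 and 20.8 CPM in WT libraries 3 and 4. Gbp10 had 4.499, 2.19 and 7.55 CPM in V617F and 32.3 and 19.0 CPM in WT. Both V617F groups lay wholly below WT.

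Gbp9 had 3.70, 3.24 and 5.39 CPM in V617F CD41-positive HSC and 25.6 and 14.6 CPM in WT. Gbp6 had 8.66, 5.83 and 12.9 CPM in V617F and 48.0 and 31.8 CPM in WT. Gbp8 had 9.34, 9.17 and 10.1 CPM in V617F and 23.5 and 20.6 CPM in WT. The log2 fold changes of these 5 members were -2.42 for Gbp10, -2.32 for Gbp4, -2.28 for Gbp9, -2.12 for Gbp6 and -1.20 for Gbp8, so that Gbp8 again moved least. A fitted fold of 2 or more in the lower direction was reached by 5 of 9 members, beside 4.98% of all genes, and this share is part of how the family was chosen.

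The chromosome 3 members differed little between genotypes in CD41-positive HSC, with log2 fold changes of -0.30 for Gbp2, -0.16 for Gbp3, -0.15 for Gbp7 and 0.05 for Gbp5. Gbp7 had 178.1, 199.1 and 197.2 CPM in V617F against 221.4 and 202.9 CPM in WT, and Gbp3 had 48.8, 49.9 and 43.1 CPM in V617F against 54.6 and 51.3 CPM in WT. For Gbp2, Gbp3 and Gbp7 every V617F library lay below both WT libraries, and for Gbp5 the groups overlapped, and 17.8% of all genes lay wholly below WT in the same way. The chromosome 5 share of the family's summed CPM per kilobase was 7.84% to 13.4% in V617F and 25.6% to 29.7% in WT.

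**Figure D2:**
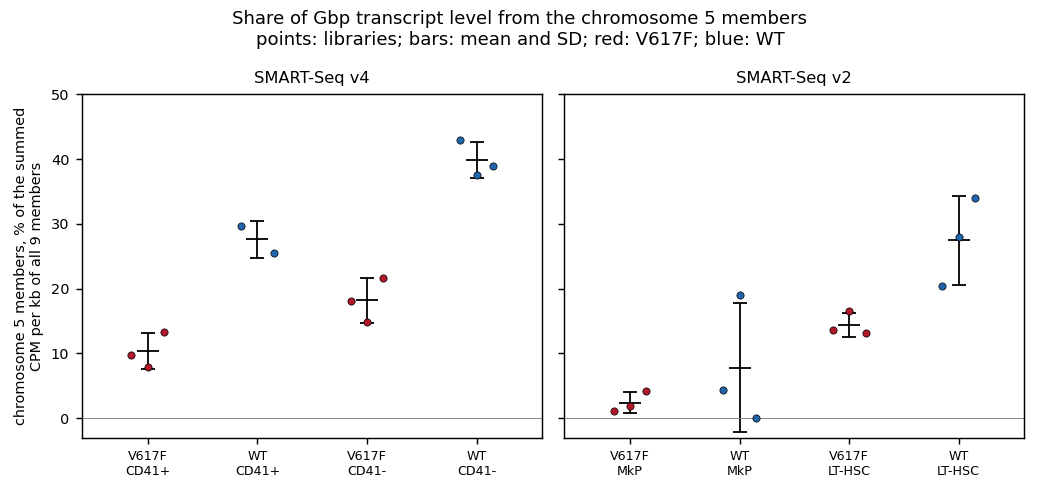
Share of the 9 members' summed CPM per kilobase that fell on the 5 chromosome 5 members (vertical axis, percent), with 1 point per library, the mean and SD of each group as bars and V617F left of WT for each of the 4 populations. V617F lies below WT without overlap in CD41-negative HSC (14.8% to 21.6% against 37.6% to 43.0%), CD41-positive HSC and LT-HSC (13.1% to 16.6% against 20.4% to 34.0%), while in MkP the V617F values lie inside the WT range.

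Within each genotype the members were lower in CD41-positive than in CD41-negative HSC, again as a description because these comparisons use the CD41-positive libraries. In WT the log2 fold changes of CD41-positive over CD41-negative HSC ran from -1.57 to -0.24, and 6 of 9 members (Gbp4, Gbp5, Gbp6, Gbp8, Gbp9 and Gbp10) were lower by 2-fold or more, beside 11% of all genes. In V617F they ran from -2.39 to -0.60, and 7 of 9 members reached that size, Gbp3 in addition, beside 10% of all genes. No member was higher by 2-fold or more in either genotype, beside 6% of all genes in WT and 5.83% in V617F. Gbp7 differed least, at 191.5 ± 11.6 CPM in CD41-positive and 290.0 ± 16.7 CPM in CD41-negative V617F HSC (SD, n = 3 each). Gbp5 averaged 24.3 ± 4.497 CPM in CD41-positive and 70.6 ± 4.91 CPM in CD41-negative V617F HSC (SD, n = 3 each), so that a chromosome 3 member was also lower by more than 2-fold. Summed CPM of the stem cell markers moved the same way, at 1793 to 2317 in CD41-positive and 3594 to 3814 in CD41-negative V617F HSC, and its part in these values was not tested.

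In LT-HSC, which are sorted without regard to CD41, no member passed the test between genotypes, and no member had an unadjusted p under 0.05. DESeq2 and limma-voom likewise called 0 members, and only 0.063% of all genes were called by edgeR. Gbp4 had 10.7, 6.65 and 13.5 CPM in V617F LT-HSC libraries 6, 7 and 8, against 3.46, 43.4 and 92.0 CPM in WT libraries 30, 31 and 32. The WT libraries spanned the V617F values, with number 30 below them all and the other two above. The log2 fold change was -2.17, with an SE of 1.40 (adjusted p = 0.604).

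Gbp10 had 7.09, 2.44 and 7.63 CPM in V617F LT-HSC and 3.74, 28.9 and 75.8 CPM in WT, with a log2 fold change of -2.66 (SE 1.55, adjusted p = 0.544). Gbp6 had 15.4, 5.82 and 12.1 CPM in V617F and 4.52, 42.9 and 140.6 CPM in WT. Gbp9 had 8.50, 5.35 and 15.6 CPM in V617F and 2.97, 23.7 and 66.1 CPM in WT. In each of these, WT number 30 lay below the V617F mean and WT number 32 was the highest of the 6 libraries. Gbp8 had 39.2, 33.2 and 27.2 CPM in V617F and 20.5, 42.4 and 61.6 CPM in WT, and its log2 fold change of -0.32 had an SE of 0.96.

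The chromosome 3 members also varied most among the WT LT-HSC. Gbp7 had 285.7, 147.1 and 274.0 CPM in V617F against 52.9, 239.9 and 326.8 CPM in WT, and Gbp2 had 202.0, 113.1 and 173.0 CPM in V617F against 71.8, 170.2 and 335.4 CPM in WT. Number 30 was the lowest WT library for both. Gbp3 had 93.8, 54.5 and 89.2 CPM in V617F against 11.8, 57.6 and 90.5 CPM in WT. Gbp5, at 5.01, 6.76 and 14.1 CPM in V617F and 13.3, 2.12 and 8.95 CPM in WT, did not follow that order. Granulocyte markers summed to 474.9 to 1177 CPM in V617F and 3746 to 6863 CPM in WT LT-HSC, and their part in these values was not tested.

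**Figure D3:**
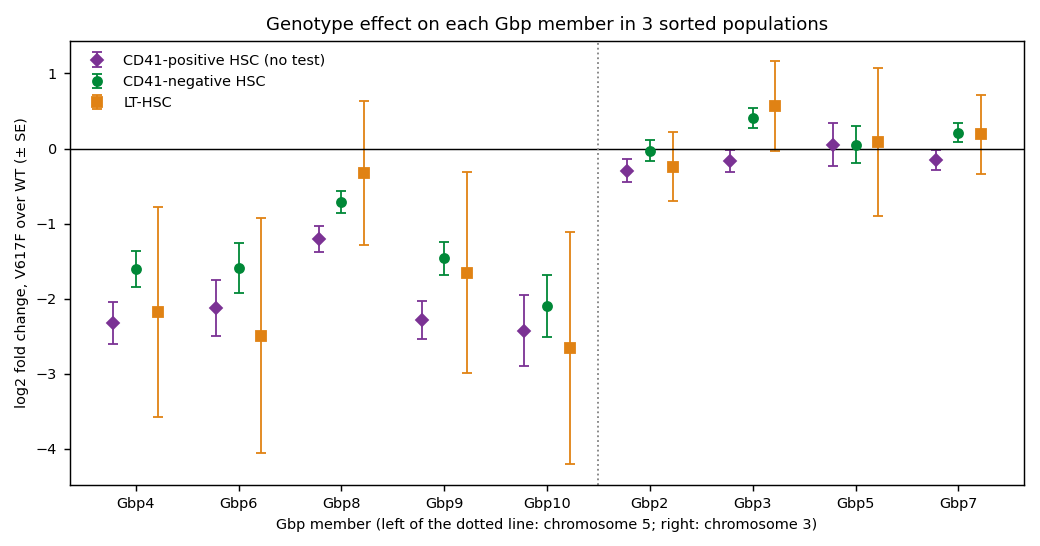
Log2 fold change of V617F over WT (vertical axis, ± SE) for each member in CD41-positive HSC (given without a test), CD41-negative HSC and LT-HSC, with the chromosome 5 members left of the dotted line and the chromosome 3 members right of it. In CD41-negative HSC the chromosome 5 members lie between -2.10 and -0.71 and the chromosome 3 members between -0.03 and 0.41, and the error bars of LT-HSC are wider (SE 1.40 for Gbp4, against 0.24 in CD41-negative HSC).

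In MkP a single member, Gbp5, passed the test between genotypes, in the higher direction, beside 1.62% of all genes that were called higher. Gbp5 had 1.25, 2.66 and 1.06 CPM in V617F MkP libraries 1, 2 and 3 and 0 counts in all 3 WT libraries. Set against a floor of 3 counts per library, it was at least 20.01-fold higher in V617F (adjusted p = 0.0212). Its level in V617F MkP, 1.66 ± 0.874 CPM (SD, n = 3), was still low. The call was lost without V617F library 1 (adjusted p = 0.0628) or 2 (adjusted p = 0.0655), which left 0 called members. Those fits called 52 of 14766 and 46 of 14749 genes. The V617F MkP libraries also detected more genes than the WT ones, as given above, and the part of that difference in a gene with 0 counts in WT was not tested.

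Gbp6 and Gbp10 were the only chromosome 5 members above 1 CPM in WT MkP. Gbp6 had 1.29, 1.18 and 5.46 CPM in V617F MkP against 8.397, 25.9 and 0 CPM in WT libraries 30, 31 and 32. Gbp10 had 0.559, 0.554 and 2.07 CPM in V617F against 3.25, 11.2 and 0 CPM in WT. The WT libraries spanned the V617F values in both, with log2 fold changes of -2.11 (SE 1.55) and -2.18 (SE 1.53). Gbp4, Gbp8 and Gbp9 stayed at or below 2.19 CPM in every MkP library.

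The other chromosome 3 members were well detected in MkP and did not pass the test. Gbp7 had 136.5, 146.6 and 167.8 CPM in V617F against 169.3, 93.2 and 165.7 CPM in WT. Gbp2 had 50.5, 48.7 and 61.0 CPM in V617F against 75.0, 47.5 and 63.5 CPM in WT, and Gbp3 had 14.1, 16.7 and 28.2 CPM in V617F against 17.7, 16.7 and 19.95 CPM in WT. All 3 overlapped between genotypes, with log2 fold changes between -0.22 and 0.12.

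Between the populations of the v2 data, 4 members were lower in MkP than in LT-HSC of WT mice, where 6.58% of all genes were called lower. Gbp8 averaged 0.392 ± 0.460 CPM in WT MkP and 41.5 ± 20.5 CPM in WT LT-HSC (SD, n = 3 each), a log2 fold change of -6.70 (SE 1.23, adjusted p = 0.00698). Gbp4 averaged 0.217 ± 0.225 CPM in MkP and 46.3 ± 44.3 CPM in LT-HSC, with a log2 fold change of -7.69 (SE 1.81, adjusted p = 0.0234). Gbp9 averaged 0.117 ± 0.160 CPM in MkP and 30.9 ± 32.2 CPM in LT-HSC, with a log2 fold change of -7.98 (SE 1.78, adjusted p = 0.0191). For all 3, every MkP library lay below every LT-HSC library, as for 12.1% of all genes.

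Gbp5 had 0 counts in the 3 WT MkP libraries and 13.3, 2.12 and 8.95 CPM in WT LT-HSC, at least 98.3-fold lower in MkP against the floor (adjusted p = 0.00306). Gbp2 averaged 62.0 ± 13.8 CPM in MkP and 192.5 ± 133.2 CPM in LT-HSC of WT mice and just missed the threshold (adjusted p = 0.0506). Gbp7 was closest between the populations, at 142.8 ± 42.9 CPM in MkP and 206.6 ± 140.0 CPM in LT-HSC (SD, n = 3 each). Leaving out WT LT-HSC number 30 added Gbp2 and Gbp3, 6 called members in all. Without WT MkP number 30, Gbp4 was lost (adjusted p = 0.0537). With the 2 WT groups fitted alone, none of the 4 was called, with adjusted p between 0.106 and 0.114. That fit called 14 of 12291 genes in all.

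In V617F mice, where MkP were female and LT-HSC male, Gbp8 was the 1 member called lower in MkP, beside 0.714% of all genes. It averaged 0.398 ± 0.200 CPM in V617F MkP and 33.2 ± 6.04 CPM in V617F LT-HSC (SD, n = 3 each), a log2 fold change of -6.37 (SE 1.22, adjusted p = 0.0307). The call was lost whichever of the 6 libraries was left out, with adjusted p between 0.0816 (without LT-HSC number 8) and 0.2 (without MkP number 1). Those fits called 31 to 52 of all genes. With DESeq2, 4 members were called, beside 693 of 14281 genes. With the 2 V617F groups fitted alone, 8 members were called, beside 2972 of 13554 genes. The fitted difference of the genotype effect between MkP and LT-HSC passed edgeR's test for 0 members, beside 0.455% of all genes, while 2 members had an unadjusted p under 0.05. These were Gbp5 (adjusted p = 0.0688) and Gbp9 (log2 difference 4.73, adjusted p = 0.499). DESeq2 called Gbp5 here, beside 523 of 14281 genes, and limma-voom called 0 members. Without WT LT-HSC number 31, edgeR called Gbp5 (adjusted p = 0.0375), beside 118 of 14687 genes.

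**Figure D4:**
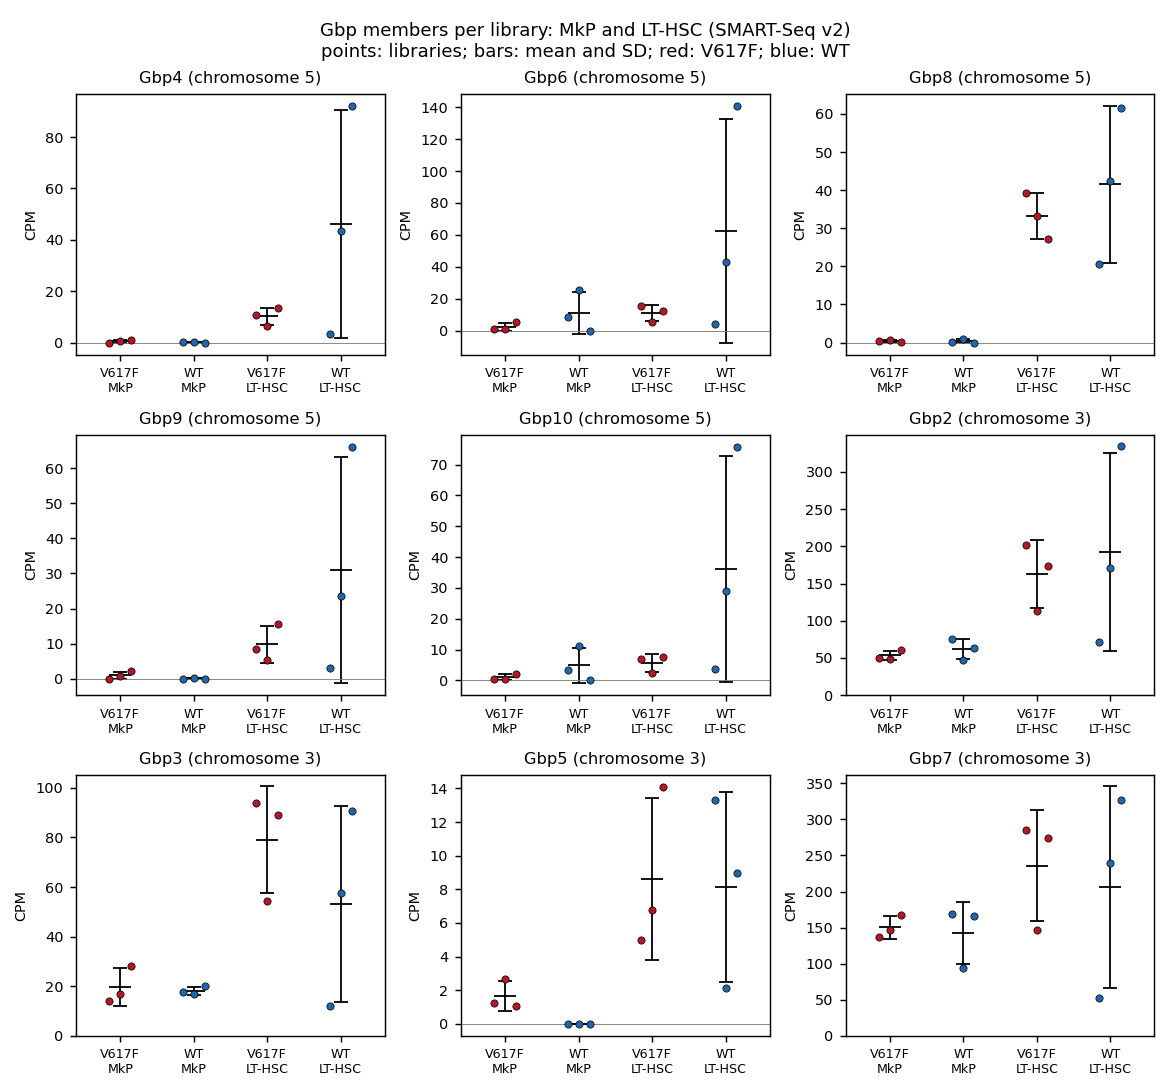
CPM (vertical axes, linear) of each member in each MkP and LT-HSC library (points), with the mean and SD of each group as bars, V617F in red and WT in blue. Gbp4, Gbp8 and Gbp9 lie near 0 in MkP, WT LT-HSC spread widely (3.46 to 92.0 CPM for Gbp4), and Gbp5 lies at 0 in the 3 WT MkP libraries.

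Compared per kilobase of gene length, the order of the members also separated the clusters. In V617F CD41-negative HSC, Gbp7 (51.6 ± 2.97 CPM per kilobase) and Gbp2 (49.7 ± 2.09) did not differ beyond their spread, and Gbp3 (36.0 ± 2.05), Gbp5 (23.4 ± 1.63) and Gbp8 (12.6 ± 0.319) followed (SD, n = 3 each). Gbp6, Gbp9, Gbp4 and Gbp10 came last, at 7.22 ± 3.21, 5.95 ± 0.759, 5.16 ± 1.18 and 4.90 ± 2.65 CPM per kilobase, and did not differ from each other beyond their spread. In WT CD41-negative HSC the chromosome 5 members came instead close to Gbp5 (22.6 ± 5.16 CPM per kilobase), with Gbp6 at 21.8 ± 4.16, Gbp10 at 21.1 ± 1.73, Gbp8 at 20.7 ± 4.15, Gbp9 at 16.4 ± 0.428 and Gbp4 at 15.7 ± 2.41 CPM per kilobase. Gbp2 (50.7 ± 8.56) and Gbp7 (44.5 ± 6.11) led there as well, ahead of Gbp3 (27.2 ± 5.02).

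Over the 11 CD41-fraction libraries the members of a cluster varied together. Pearson's r between log2 CPM values had a median of 0.958 over the 10 pairs on chromosome 5 (0.879 to 0.991), 0.882 over the 6 pairs on chromosome 3 (0.842 to 0.919) and 0.636 over the 20 pairs across the clusters (0.410 to 0.881). Over the 12 LT-HSC and MkP libraries the medians were 0.804, 0.652 and 0.680 for the same kinds of pair. The libraries share groups and the chromosome 5 genes share sequence, so these are descriptions. Outside the family, the genes whose log2 CPM most resembled the members' mean profile over the 11 CD41-fraction libraries were Pcp4l1, Tmem106a, Ltb, Fam169b, Tmem154, Gch1, Ccl4 and Irgm2, with r of 0.987 to 0.971. Over the 12 LT-HSC and MkP libraries they were Oasl2, Slc16a12, Irgm2, Iigp1, Notch1, Itsn1, Tgm2 and Clec14a, with r of 0.973 to 0.916.

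Relatives outside the 9 members were read in the same way. The pseudogene Gbp11, which lies at the end of the chromosome 5 cluster, had 5.97, 1.62 and 6.71 CPM in V617F CD41-negative HSC and 20.2, 22.2 and 15.2 CPM in WT. It fell in V617F, with a log2 fold change of -1.996 (SE 0.40, adjusted p = 0.015). Of the stretches of 50 bases in Gbp11, 19.2% also occur in other genes of the family, most often in Gbp8 (9.57%). Its counts are thus uncertain as to which gene they belong to. Gbp2b, on chromosome 3, did not pass the test there (2.22 ± 0.411 CPM in V617F and 3.29 ± 0.804 CPM in WT, SD, n = 3 each, adjusted p = 0.16). Of the 5 nearest non-family genes on either side of the chromosome 5 cluster, 9 were tested and Abcg3 was the one called lower (log2 fold change -0.62, adjusted p = 0.0314). Kyat3 beside the chromosome 3 cluster was called higher (0.54, adjusted p = 0.0259). Across all genes 7.94% were called lower and 13.4% in either direction, so these calls are no result about the neighbours.

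The interferon pathway around the family was read through lists in CD41-negative HSC, where the median log2 fold change of all genes was -0.01 and 7.94% of all genes were called lower. Among receptors, kinases and signal transducers, Stat2, which works in type I interferon signalling, fell to an average of 87.1 ± 12.2 CPM in V617F, against 118.3 ± 13.9 CPM in WT (SD, n = 3 each, adjusted p = 0.0494). Jak2 itself averaged 236.2 ± 19.8 CPM in V617F and 216.7 ± 28.2 CPM in WT (adjusted p = 0.498), and gene counts do not show which allele was transcribed. Of 7 interferon ligand genes only 2 passed the filter on low counts, 0 were called or had an unadjusted p under 0.05, and Ifng, Ifna4 and Il12b had 0 counts in all 8 groups.

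Of 9 interferon regulatory factors and coactivators, 2 fell, both coactivators of antigen presentation genes. Ciita, which drives MHC class II genes, averaged 11.8 ± 2.28 CPM in V617F and 21.7 ± 4.27 CPM in WT (SD, n = 3 each, adjusted p = 0.0226), and Nlrc5, which drives MHC class I genes, 137.6 ± 14.6 CPM in V617F and 220.7 ± 57.4 CPM in WT (adjusted p = 0.0292). Irf1, an activator of Gbp genes, averaged 226.2 ± 9.92 CPM in V617F and 262.1 ± 18.1 CPM in WT (adjusted p = 0.176). Of 8 inhibitors of interferon signalling, Irf2bp1 alone passed the test, lower in V617F (adjusted p = 0.0467). Beside the 13.4% of all genes called in either direction, that count is no result about the inhibitors.

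Of 20 genes mainly induced by interferon-gamma, most of them in antigen processing, 5 fell and none rose, with a median log2 fold change of -0.51. Their summed CPM varied widely among the WT libraries, at 10600 to 26460, and was 10090 to 11160 in V617F. Cd74, the invariant chain of MHC class II, averaged 203.0 ± 42.6 CPM in V617F and 413.3 ± 42.8 CPM in WT (SD, n = 3 each, log2 fold change -1.03, adjusted p = 0.0182). Tap1, a subunit of the peptide transporter, averaged 249.5 ± 35.1 CPM in V617F and 400.7 ± 92.1 CPM in WT (adjusted p = 0.0284). Tapbp (adjusted p = 0.0185), H2-Aa (adjusted p = 0.0404) and H2-Ab1 (adjusted p = 0.0447) were the other three. Of 24 genes mainly induced by type I interferon, 1 fell, Cmpk2, at 61.5 ± 5.03 CPM in V617F and 92.9 ± 22.5 CPM in WT (adjusted p = 0.0404), and the median of that list was -0.04. Set beside the 7.94% of all genes called lower, this count is no result about the list. In CD41-positive HSC, given as a description, the order of the lists was the other way round. There the type I list had a median log2 fold change of -0.71, with 22 of 24 genes below 0, and the interferon-gamma list one of -0.17, with 13 of 20 below 0, beside 0.03 over all genes. Ifit1, for example, averaged 14.4 ± 4.56 CPM in V617F (n = 3) and 44.6 ± 10.2 CPM in WT CD41-positive HSC (SD, n = 2).

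The immunity-related GTPases, which work beside the Gbp proteins on pathogen vacuoles, gave no call. Of 6 genes, 0 passed edgeR's test or had an unadjusted p under 0.05, and the median log2 fold change was -0.10. Irgm2, for example, averaged 148.8 ± 13.0 CPM in V617F and 166.9 ± 29.5 CPM in WT (SD, n = 3 each). Of 8 tested inflammasome and effector genes, Ninj1, which ruptures the membrane of dying cells, fell (143.1 ± 3.99 CPM in V617F and 234.1 ± 42.8 CPM in WT, adjusted p = 0.00931). Casp1, the inflammasome protease, rose (84.6 ± 8.75 CPM in V617F and 58.3 ± 13.5 CPM in WT, adjusted p = 0.0413). With 7.94% of all genes called lower and 13.4% in either direction, 1 call each way is no result about that list.

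**Figure D5:**
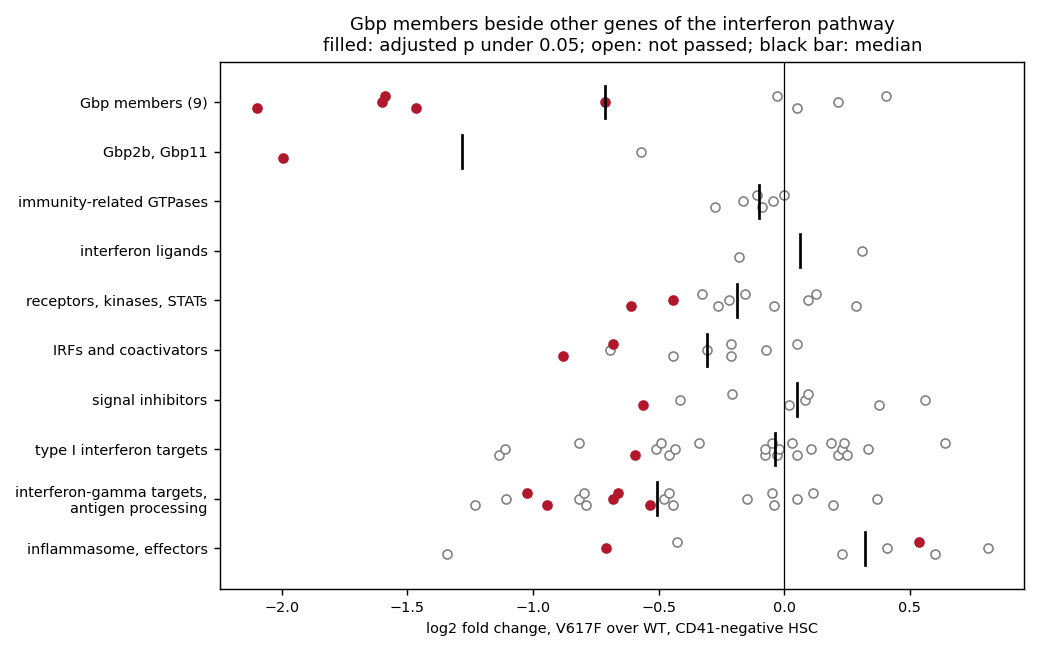
Log2 fold change of V617F over WT in CD41-negative HSC (horizontal axis) for each tested gene of the family and of the pathway lists (rows), as points filled where the adjusted p was under 0.05, with the median of each list as a black bar. The 9 members have a median of -0.71 with Gbp10 lowest at -2.10, the interferon-gamma list has a median of -0.51 and the type I list of -0.04, an order that was the other way round in CD41-positive HSC (-0.17 and -0.71).

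Outside the CD41 fractions the pathway lists gave few genotype calls. Cd74 was lower in V617F in both LT-HSC (217.6 ± 65.2 CPM in V617F and 1170 ± 270.2 CPM in WT, adjusted p = 0.0376) and MkP (6.27 ± 1.12 CPM in V617F and 75.7 ± 28.7 CPM in WT, adjusted p = 0.00339; SD, n = 3 each). In MkP, Ifit3 and Socs3, both with 0 counts in the 3 WT libraries, were called higher in V617F (adjusted p = 0.00964 and 0.038), as was Gbp5. Of all genes 1.62% were called higher there, and the WT MkP libraries detected fewer genes, as given above. The part of that difference in these calls was not tested. Between populations of WT mice, 3 of 6 immunity-related GTPases (Igtp, Iigp1 and Gvin1) and 7 of 19 tested interferon-gamma genes were called lower in MkP than in LT-HSC, beside 6.58% of all genes. With the WT groups fitted alone, 0 Gbp members and 14 of 12291 genes were called, and the lists were not run in that fit. Igtp averaged 96.6 ± 13.5 CPM in WT MkP and 311.0 ± 65.9 CPM in WT LT-HSC (SD, n = 3 each, log2 fold change -1.69, adjusted p = 0.00909).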

How the data were processed

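STAR 2.5.2a, R 3.4.2, limma and the build mm10 are listed in the submitters' processing notes for these polyA RNA libraries, which followed SMART-Seq v2 or v4 and Nextera XT, per the labels' protocols. The counting tool, annotation and strand setting are not given in the sources used here. Values as deposited by the authors are raw counts of each gene, whole numbers that were not normalised, beside a gene length column, per the file headers. For the 12 v2 and the 11 v4 libraries, separate fits were made with edgeR 4.0.16 under R 4.3.3 (TMM scaling, filterByExpr on groups, 1 mean per group, quasi-likelihood test), which left 14281 and 14467 genes. P-values were adjusted by Benjamini-Hochberg over all genes of a comparison, with a threshold of 0.05. Labels do not say that libraries are from separate mice, so p-values measure the spread between libraries. SE is the log2 fold change divided by the root of F, CPM uses the TMM-scaled total, log2 CPM a prior count of 3, and a fold against 0 uses a floor of 3 counts per library. Floors cover counting error only.

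Members and lists were chosen with earlier results of these data known. All 9 members are named, of each other list the genes with the smallest p among those called (at most 6), and of similar genes the 8 with the highest r among genes of at least 5 CPM. V617F libraries with equal numbers in the CD41 fractions varied together (residual r 0.301, 0.419 and 0.298), whereas equal WT numbers did not (0.0429 and 0.0242 in the CD41 fractions, -0.0328 to 0.0231 in LT-HSC and MkP). The main fits held no pairing, and equal numbers were joined only in the replicate block. Alternatives were DESeq2 1.42.0, limma-voom (limma 3.58.1), RLE factors, no filter, 5 CPM in 3 libraries, the compared groups alone, sex, a replicate block and leaving out libraries. The code was tested on simulated data. Sequences are from RefSeq (GRCm38.p6) and GENCODE (GRCm38), aligned with Biopython 1.88. Promoters of Gbp4, Gbp6, Gbp8, Gbp9 and Gbp10 were not used here. A gene of the pathway lists is not reported here.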

Additional observations from a re-analysis of the deposited data

Results flagged for a closer look

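Gbp3 was the member whose genotype difference pointed opposite ways in the CD41 fractions without overlap of the libraries. In CD41-negative HSC every V617F library lay above every WT library (log2 fold change 0.41, SE 0.13), as for 16% of all genes. In CD41-positive HSC every V617F library lay below both WT libraries (log2 fold change -0.16, SE 0.15), as for 17.8% of all genes. The CD41-positive difference was about as large as its SE, so an opposite direction there is not established. The difference between the fractions was not tested, and the CD41-positive values belong to the comparison on which the family was chosen.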

How the results depend on the processing

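In CD41-negative HSC, Gbp4 and Gbp9 were called lower in V617F under all 16 alternatives, Gbp6 and Gbp10 under 14 and Gbp8 under 11. The number of called members was 2 to 7 when 1 library was left out, 6 with the replicate block, DESeq2 or limma-voom (Gbp3 in addition), 4 with the compared groups alone (Gbp8 lost, adjusted p = 0.0656) or without the male mouse (Gbp8, adjusted p = 0.0644), and 3 without WT libraries 1 and 3 together, which leaves 1 WT library, assumed to vary like the other groups. The alternative without WT libraries 1 and 3 and the one without the male mouse were added after the data were seen. In the fit with 2 called members, without V617F library 1, 303 of 14400 genes were called. For V617F against WT, the replicate block joined libraries by label number across genotypes too. V617F and WT libraries of different mice thus shared a block, and that fit is not a pairing of mice. The cause was not tested. In CD41-positive HSC 5 members were lower by 2-fold or more under all alternatives, and in the comparison of CD41-positive with CD41-negative HSC 0 were higher in either genotype, with the replicate block too.

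In LT-HSC 0 members were called under all alternatives. In MkP the count was 0 to 1 when 1 library was left out and 1 otherwise. For MkP against LT-HSC in WT it was 3 to 6 when 1 library was left out, 0 with the compared groups alone and 0 with the replicate block (adjusted p 0.366 to 0.379), a pairing that the WT numbers did not bear out. Of 12291 genes, 14 were called with the compared groups alone and 6 with the replicate block. In V617F the count of called members was 0 to 0 when 1 library was left out. It was 4 with DESeq2, beside 693 of 14281 genes, and 8 with the compared groups alone, beside 2972 of 13554 genes. No paired fit was possible in V617F because LT-HSC and MkP share no numbers. For the difference of the genotype effect the count of called members was 0 to 1 when 1 library was left out. It was 1 with DESeq2, beside 523 of 14281 genes.

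Members that did not pass the test changed sign under some alternatives, always with an adjusted p of at least 0.658. In CD41-negative HSC, the log2 fold change of Gbp5 was -0.142 to 0.185 when 1 library was left out, -0.0418 with sex as a covariate, -0.104 with the replicate block, -0.0103 without the male mouse and -0.0642 without WT libraries 1 and 3, and that of Gbp2 was -0.176 to 0.067 when 1 library was left out. In LT-HSC, leaving out 1 library gave -0.541 to 0.647 for Gbp5, -0.250 to 0.689 for Gbp7, -0.624 to 0.408 for Gbp2 and -0.636 to 0.0502 for Gbp8, and Gbp5 was -0.0413 with DESeq2 and -0.042 with RLE factors. In MkP, leaving out 1 library gave -0.504 to 1.468 for Gbp8, -0.123 to 0.259 for Gbp7 and -0.232 to 0.357 for Gbp3. Gbp8 was there -0.0487 with DESeq2, -0.0453 with RLE factors and -0.0416 with the filter of 5 CPM, and limma-voom gave 0.346 for Gbp6 and 0.0332 for Gbp10.

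Groups of 2 or 3 libraries limit all tests, and 6 members at 0 counts in WT MkP number 32 leave their MkP level undetected at that depth.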
